A study of Homo sapiens with 6 samples.

Results

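The genes described here are 9 components of MHC class I antigen presentation, namely HLA-B, HLA-C, HLA-E and HLA-F, B2M, TAP1 and TAP2, and PSMB8 and PSMB9. They were taken by symbol from the 25368 gene symbols that are listed in each of 2 tables of RNA-seq expression, and all 9 were found in both tables. The tables hold 6 libraries of MRC5 cells, fibroblasts from human embryonic lung that the study used as an immortalized line. In the JUN overexpression table, MRC5 cells had been infected with adenovirus that carried an empty vector (control), FLAG-tagged wild-type JUN (JUN WT) or JUN AA, in which both sites that JNK phosphorylates are changed to alanine, so that the control cells had also met the virus. In the JNKi table, untreated MRC5 cells stand beside induced cancer-associated fibroblasts (iCAFs), which are MRC5 cells kept for 7 days in medium conditioned by MDA-MB-231 breast cancer cells, and beside iCAFs+JNKi, which were then given 1 µM of the JNK inhibitor JNKi for 48 h. The label of the iCAFs library does not say whether these cells received the vehicle in that time. Every condition has 1 library. No difference below therefore has a replicate check, no p-value or error is given, and all differences describe these libraries.

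MHC class I molecules show peptides from inside the cell to CD8 T cells. The proteasome cuts proteins into peptides, the TAP1 and TAP2 transporter carries the peptides into the endoplasmic reticulum, and chaperones load them onto a heavy chain (HLA-B, HLA-C, HLA-E or HLA-F) that is paired with the light chain beta-2 microglobulin, the product of B2M. PSMB8 and PSMB9 are catalytic subunits of the immunoproteasome, which take the places of PSMB5 and PSMB6 in the constitutive enzyme. Most nucleated cells, fibroblasts among them, express the pathway at a basal level, and interferons are its best known inducers, through factors such as IRF1 and the coactivator NLRC5.

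On GRCh37, 8 of the 9 genes lie on chromosome 6 in the MHC region. HLA-F extends from 29690552 to 29706305, HLA-E from 30457286 to 30461971, HLA-C from 31236526 to 31239907 and HLA-B from 31321649 to 31334844. TAP2 (32789610 to 32806516), PSMB8 (32808494 to 32812456), PSMB9 (32811913 to 32827628) and TAP1 (32812986 to 32821593) form one cluster. B2M lies apart, on chromosome 15 from 45003556 to 45011049. In the GENCODE annotation, exons of TAP1, PSMB8 and PSMB9 share bases with the antisense gene PSMB8-AS1, exons of PSMB8 and PSMB9 share bases with each other, and HLA-B, HLA-F and TAP2 share exon bases with other annotated genes. The strand setting of the authors' counting is not given in the sources used here, so reads of such partners cannot be told apart. The heavy chain genes are also close relatives, and how reads were divided among them is uncertain.

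Promoter sequences of 4 of the genes are shown because, among the 8 genes above 0 in JUN AA, HLA-B and TAP1 had the lowest differences from control with deposited values and B2M was the single gene above it, and because TAP1 and PSMB9 are read in opposite directions from neighbouring starts, 487 bases apart, so that their windows share 13 bases. The windows come from RefSeq on GRCh38.p14, cover 250 bases before and 50 bases after a start, and are printed 5′ to 3′ on the gene's strand. They lie at chr6:31357130-31357429 (HLA-B, minus strand), chr6:32853655-32853954 (TAP1, minus strand), chr6:32853942-32854241 (PSMB9, plus strand) and chr15:44711267-44711566 (B2M, plus strand). Capitals mark matches, on either strand, to the core of the interferon-stimulated response element (AANNGAAA), to its longer form (GAAANNGAAA), which overlaps the core, and to the NF-kB consensus.
HLA-B: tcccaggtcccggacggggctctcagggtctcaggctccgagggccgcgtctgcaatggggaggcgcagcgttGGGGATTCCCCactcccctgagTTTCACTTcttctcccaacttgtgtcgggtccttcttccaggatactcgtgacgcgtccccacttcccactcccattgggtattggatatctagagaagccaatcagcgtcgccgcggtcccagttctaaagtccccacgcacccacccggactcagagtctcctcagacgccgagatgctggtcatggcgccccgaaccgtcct
TAP1: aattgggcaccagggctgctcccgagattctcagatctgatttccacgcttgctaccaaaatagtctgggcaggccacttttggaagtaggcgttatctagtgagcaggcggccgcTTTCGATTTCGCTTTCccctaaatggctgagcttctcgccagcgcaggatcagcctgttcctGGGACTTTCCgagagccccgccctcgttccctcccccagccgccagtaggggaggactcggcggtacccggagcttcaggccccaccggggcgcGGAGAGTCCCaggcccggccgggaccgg
PSMB9: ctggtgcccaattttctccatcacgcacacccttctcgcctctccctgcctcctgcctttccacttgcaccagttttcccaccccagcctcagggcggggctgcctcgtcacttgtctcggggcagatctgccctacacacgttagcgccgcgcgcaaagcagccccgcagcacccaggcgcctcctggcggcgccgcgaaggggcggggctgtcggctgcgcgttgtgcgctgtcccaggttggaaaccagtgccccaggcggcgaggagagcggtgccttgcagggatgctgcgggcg
B2M: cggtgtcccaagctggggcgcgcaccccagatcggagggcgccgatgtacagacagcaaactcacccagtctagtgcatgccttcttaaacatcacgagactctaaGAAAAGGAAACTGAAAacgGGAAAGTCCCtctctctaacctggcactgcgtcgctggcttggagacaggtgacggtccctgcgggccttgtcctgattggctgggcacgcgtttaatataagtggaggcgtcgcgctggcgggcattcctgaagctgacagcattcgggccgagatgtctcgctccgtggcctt

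RefSeq windows were found for 8 of the 9 genes, 10 windows in all. The response element core was present in windows of HLA-B, HLA-C, HLA-F, TAP1, TAP2, PSMB8 and B2M, and 22.9% of all 34943 promoter windows hold it. In the HLA-B window it stood at positions -155 to -148 from the start, next to a palindromic NF-kB match. The longer form was present in HLA-F, TAP1, TAP2, PSMB8 and B2M against 3.57% of all windows, and the TAP1 and B2M windows each held it as an overlapping pair. The NF-kB consensus was found in HLA-B, HLA-C, TAP1 and B2M (11.3% of all windows). The gamma-activated site TTCNNNGAA was found in a window of PSMB8 and in a further TAP1 window that is not printed (7.66% of all windows). PSMB8 and TAP1 have more windows than the other genes, and so more chances of a match than a share per window reflects. The CCAAT box was found in HLA-B, HLA-C, HLA-F, TAP1, PSMB9 and B2M (34.6% of all windows), and it was the single match in the PSMB9 window. The AP-1 heptamer TGANTCA, the sequence that JUN dimers are known to bind, was in none of the 10 windows and in 7.72% of all windows. The letters of the response element were settled after the windows had been seen, and a match describes these letters and not a bound site.

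Levels are given as FPKM, in which the reads of a gene are divided by its exon length and by the fragments mapped in that library. The deposited FPKM of the 8 MHC region genes have a further property. They become numbers of 6 decimals, the form in which the counting software writes values, only when multiplied by a small whole number. It is 6 for HLA-B, 7 for HLA-C, HLA-E and HLA-F, and 8 for TAP1, TAP2, PSMB8 and PSMB9, whereas B2M needs 1. A deposited value thus behaves as the mean of 6 to 8 values, here called copies. On chromosome 6 between TRIM27 and KIFC1, which border the MHC region, 142 of 146 genes above 0 (97.3%) needed more than 1 copy, against 131 of 16396 genes (0.799%) elsewhere. The hg19 assembly is known to hold alternate sequences of the MHC region, and their part in this was not tested. Ratios of 1 gene between libraries do not depend on the copies, but levels of different genes do, and so do log2(FPKM + 1) differences of low genes. Deposited values are the main ones, and values multiplied by the copies are given beside them where they differ.

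The 9 genes spanned a wide range of levels. In the control library, B2M was at 1029 FPKM, HLA-C at 109, HLA-B at 77.8, HLA-E at 38.0, TAP1 at 12.7, PSMB8 at 10.9, PSMB9 at 5.56, TAP2 at 1.71 and HLA-F at 0.614. Multiplied by the copies, HLA-C came to 763, HLA-B to 467 and HLA-E to 266, so that the gap between B2M and the heavy chains depends on the copies, while B2M remained the highest and HLA-F, at 4.30, the lowest. In untreated MRC5 the order of the 4 highest genes was the same, with B2M at 833, HLA-C at 40.3, HLA-B at 26.4 and HLA-E at 17.0, and PSMB9 was at 0.299. The tables were normalized separately, and levels are compared only within each. At a filter of 1 FPKM on the mean over the 3 libraries of a table, 8 of the 9 genes passed in the JUN overexpression table (all but HLA-F) and 7 of 9 in the JNKi table (all but HLA-F and PSMB9). All 9 are described.

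**Figure D1:**
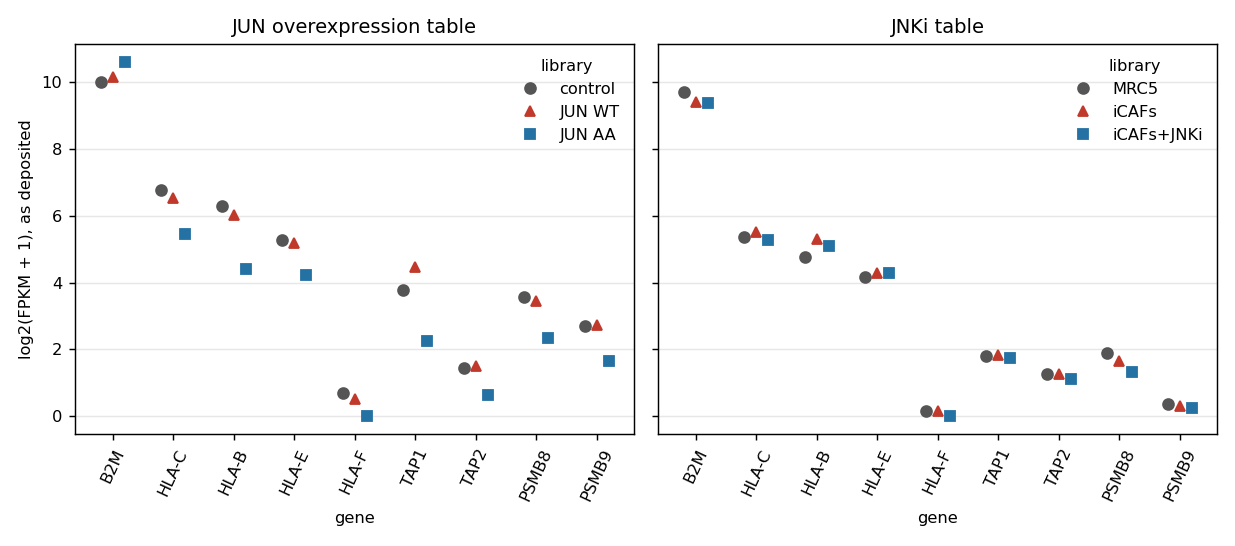
Level of each of the 9 genes as log2(FPKM + 1) of the deposited values, with 1 point per library, in the JUN overexpression table (left) and the JNKi table (right). In the left panel the JUN AA square lies lowest for 8 genes and highest for B2M, and in the right panel the 3 points of a gene lie close together.

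The labels and the cell type were checked first. JUN was at 25.5 FPKM with the empty vector, 4543 with JUN WT and 291 with JUN AA, and at 57.1 in untreated cells, 55.3 in iCAFs and 21.1 after JNKi. All 6 fibroblast markers were at 1 FPKM or more in all 6 libraries, with sums of 5947 with the empty vector, 5346 with JUN WT and 4130 with JUN AA, and of 3864 to 5687 in the JNKi table. Single markers moved apart within these sums, with VIM at 1480, 2927 and 1591 FPKM, COL1A1 at 2388, 1014 and 1208, and PDGFRB at 60.4, 13.8 and 15.8 over the JUN overexpression libraries. Of the 6 leukocyte markers 1, CD68, reached 1 FPKM, and the list's sum was 33.2 with the empty vector, 86.2 with JUN WT and 31.2 with JUN AA and 38.5 to 48.7 in the JNKi table, with the defining gene PTPRC at 0.0148 or less in all libraries. Epithelial markers summed to 56.2 with the empty vector, 21.5 with JUN WT, 19.7 with JUN AA and 32.8 to 39.6 in the JNKi table, mainly from KRT8 and KRT18, with CDH1 listed at 0 throughout. None of the 3 endothelial markers reached 1 FPKM. The part of these marker levels in the differences below was not tested. In bulk RNA, fewer cells of a kind and less RNA per cell cannot be told apart. The FPKM of all genes summed to 494603 with the empty vector, 498514 with JUN WT and 613184 with JUN AA.

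The comparison of JUN AA with control asks how the class I genes stood in cells given added JUN in which both JNK sites are changed. The cells' own JUN was not removed. JUN mRNA was at 25.5 FPKM with the empty vector, 291 with JUN AA and 4543 with JUN WT. The amount of JUN and its sites therefore cannot be told apart. Heavy chain, transporter and immunoproteasome mRNA was lower in JUN AA, and the light chain was not. Of the 9 genes, 6 were lower by 2-fold or more on the log2(FPKM + 1) scale and 0 were higher by that much, whereas 3.77% of the 10311 genes that averaged 1 FPKM or more were that much lower and 5.29% that much higher. All genes but B2M were lower to some degree. The median of the 9 differences was -1.05, beside a median of -0.02 over all genes, with an interquartile range from -0.33 to 0.33. Multiplied by the copies, 8 of the 9 were at least 2-fold lower, HLA-F among them because it was listed at 0 in JUN AA, and the median was -1.39.

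HLA-B, a classical heavy chain that presents peptides to T cells, was at 77.8 FPKM with the empty vector, 63.5 with JUN WT and 20.4 with JUN AA. JUN AA stood apart from the other libraries, at 0.263 times the control, a log2 difference of -1.88. HLA-C, also classical and a ligand of natural killer cell receptors, was at 109 with the empty vector, 90.6 with JUN WT and 42.7 with JUN AA, with a log2 difference of -1.33 in JUN AA. HLA-E, a nonclassical chain that binds the leader peptides of other class I chains and is read by natural killer cells, was at 38.0, 35.6 and 17.8 FPKM over those libraries, and its difference of -1.05 in JUN AA was the smallest of these 3. HLA-B was thus lower by more than HLA-C, and the ratio of HLA-B to HLA-C within a library, with both multiplied by their copies, was 61.1% with the empty vector, 60.0% with JUN WT and 41.1% with JUN AA. HLA-F, a nonclassical chain of restricted expression, was at 0.614 FPKM with the empty vector, 0.436 with JUN WT and listed at 0 with JUN AA, so no fold is given for it. If HLA-F is placed lowest of the 9 rather than by its pseudocounted value, the median of the 9 differences is that of PSMB8, -1.23.

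B2M, the light chain shared by all class I molecules, went the other way. It was at 1029 FPKM with the empty vector, 1128 with JUN WT and 1562 with JUN AA, which is 1.52 times the control and a log2 difference of 0.60. This direction was kept when the FPKM of each library were rescaled to the same sum, where the difference was 0.29, and when differences were centred on the median gene, where it was 0.62. The rescaling also moved the median of all genes from -0.02 to -0.29, so relative to the median gene B2M was higher under each of these scalings. These scalings treat all genes of a library alike, and a shift that differs between genes was not tested.

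TAP1 and TAP2 form the peptide transporter as a pair. TAP1 was at 12.7 FPKM with the empty vector, 20.9 with JUN WT and 3.79 with JUN AA, the widest spread over these 3 libraries among the 8 genes that are above 0 in all of them. In JUN AA it was at 0.297 times the control, with a log2 difference of -1.52, or -1.72 when multiplied by its copies. TAP2 was at 1.71 with the empty vector, 1.85 with JUN WT and 0.544 with JUN AA. Its ratio of 0.319 was close to that of TAP1, but at these low levels the log2(FPKM + 1) difference was -0.81 with deposited values and -1.45 multiplied by the copies. TAP2 therefore counts as 2-fold lower on 1 of these scales. Within a library, TAP1 per TAP2 was 7.47 with the empty vector, 11.3 with JUN WT and 6.97 with JUN AA.

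The immunoproteasome subunits of the MHC region, PSMB8 and PSMB9, were both lower in JUN AA. PSMB8 was at 10.9 FPKM with the empty vector, 9.91 with JUN WT and 4.09 with JUN AA, where it was at 0.374 times the control (log2 difference -1.23). PSMB9 was at 5.56 with the empty vector, 5.70 with JUN WT and 2.17 with JUN AA, at 0.390 times the control (-1.05 with deposited values and -1.31 multiplied by the copies). For both, the control and JUN WT lay close to each other and JUN AA lay below.

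**Figure D2:**
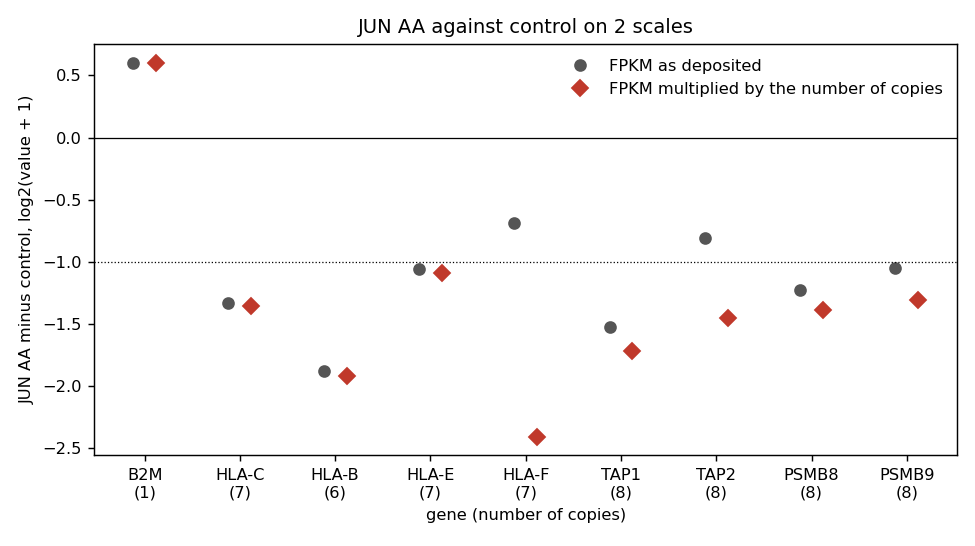
Difference of JUN AA from control for each gene on the scale log2(value + 1), with 1 library per condition, computed from the deposited FPKM (circles) and from FPKM multiplied by the number of copies in parentheses (diamonds); the dotted line marks 2-fold. The scales differ little for HLA-B and HLA-C and most for the low genes TAP2, from -0.81 to -1.45, and HLA-F, which is listed at 0 in JUN AA.

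With wild-type JUN, which has more JUN mRNA and sites open to phosphorylation, the 9 genes stayed within 2-fold of the control, TAP1 departing most. Of the 9 genes, 0 passed 2-fold upwards and 0 downwards in JUN WT relative to the empty vector, beside 6.92% and 3.39% of all genes. TAP1 was at 1.64 times the control, a log2 difference of 0.67, while the other 8 lay between -0.29 (HLA-B) and 0.13 (B2M). The median of the 9 was -0.09 and that of all genes 0.15. Centred on the median gene, TAP1 remained above 0 at 0.52 and the other 8 were below 0. HLA-B (-0.44) and HLA-C (-0.41) then lay nearly as far from 0 as TAP1. The directions of B2M, TAP2 and PSMB9 depend on the scaling.

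The JUN WT and JUN AA comparisons share the control library. Compared directly with JUN AA, JUN WT had 5 of the 9 genes higher by 2-fold or more and 0 lower by that much, beside 6.65% and 5.61% of all genes. The largest of these differences was that of TAP1, at 5.51 times JUN AA (log2 difference 2.19), followed by HLA-B at 3.11 times (1.59). PSMB8 (1.10), PSMB9 (1.08) and HLA-C (1.07) lay just past 2-fold, HLA-E (0.96) and TAP2 (0.89) just short of it, and B2M was lower in JUN WT (-0.47). The count of 5 is close to the threshold. It was 7 with the values multiplied by the copies, where TAP2 and HLA-F joined, and 7 after rescaling to the same sum, where TAP2 and HLA-E joined. It was 2, TAP1 and HLA-B, when differences were centred on the median gene.

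**Figure D3:**
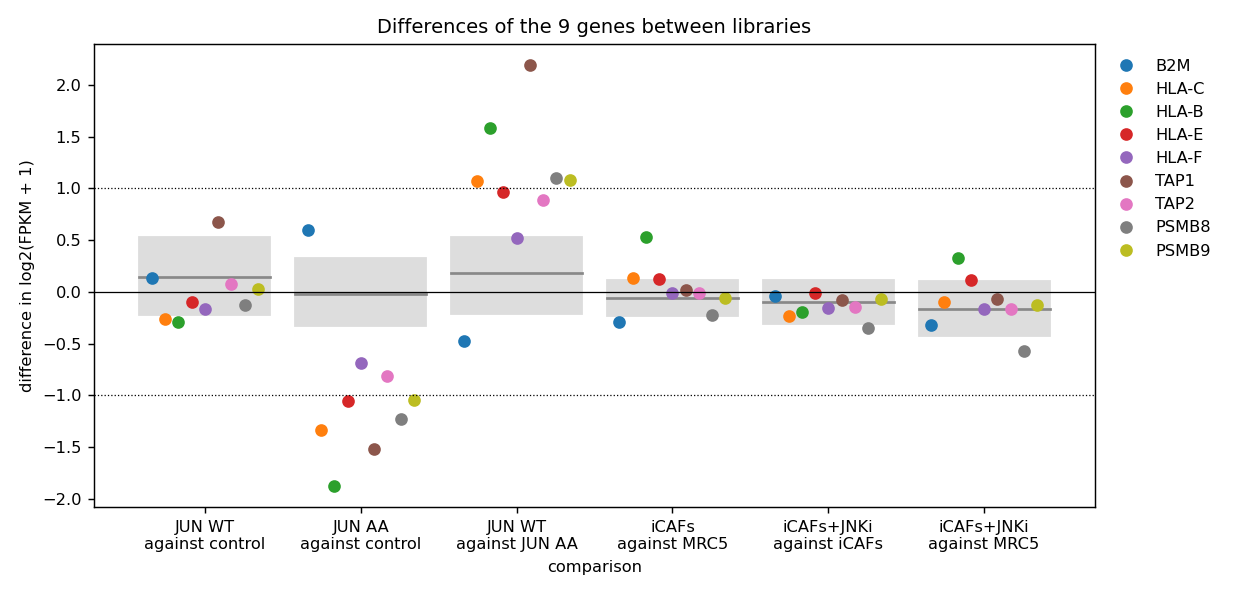
Difference in log2(FPKM + 1) of each of the 9 genes (coloured points) in 6 comparisons of 1 library with 1 library; grey boxes span the interquartile range of all genes passing the filter with the median as a line, and dotted lines mark 2-fold. In JUN AA against control 8 genes lie below the grey box and B2M lies above it, whereas in the 3 comparisons of the JNKi table no gene passes a dotted line.

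Ratios of 2 genes within the same library do not depend on a scaling factor common to all its genes. A shift that differs between genes would remain in them and was not tested. They set each immunoproteasome subunit against the constitutive subunit whose place it takes. PSMB8 per PSMB5 was 24.6% with the empty vector, 20.9% with JUN WT and 7.65% with JUN AA when PSMB8 is multiplied by its copies, and 3.08%, 2.61% and 0.957% as deposited. PSMB9 per PSMB6 was 32.3%, 21.3% and 7.32% in the same order multiplied by the copies, and 4.04%, 2.66% and 0.916% as deposited. JUN AA was lowest in both. PSMB6 itself was higher in JUN AA, at 237 FPKM against 138 in the control. PSMB5 was at 428 against 355, and its difference turned from 0.27 to -0.04 after rescaling to the same sum. PSMB10, the remaining catalytic subunit of the immunoproteasome, lies outside the MHC region and did not follow this order, with PSMB10 per PSMB7 at 38.3% with the empty vector, 16.8% with JUN WT and 35.0% with JUN AA. PSMB10 was at 51.2, 40.9 and 47.3 FPKM and PSMB7 at 134, 244 and 135. For the heavy chains multiplied by their copies, HLA-B per B2M was 45.4% with the empty vector, 33.8% with JUN WT and 7.85% with JUN AA, HLA-C per B2M was 74.2%, 56.2% and 19.1%, and HLA-E per B2M was 25.9%, 22.1% and 7.97%. The sum of these 3 heavy chains per B2M was 145% with the empty vector, 112% with JUN WT and 34.9% with JUN AA on that scale, and 21.9%, 16.8% and 5.18% as deposited.

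**Figure D4:**
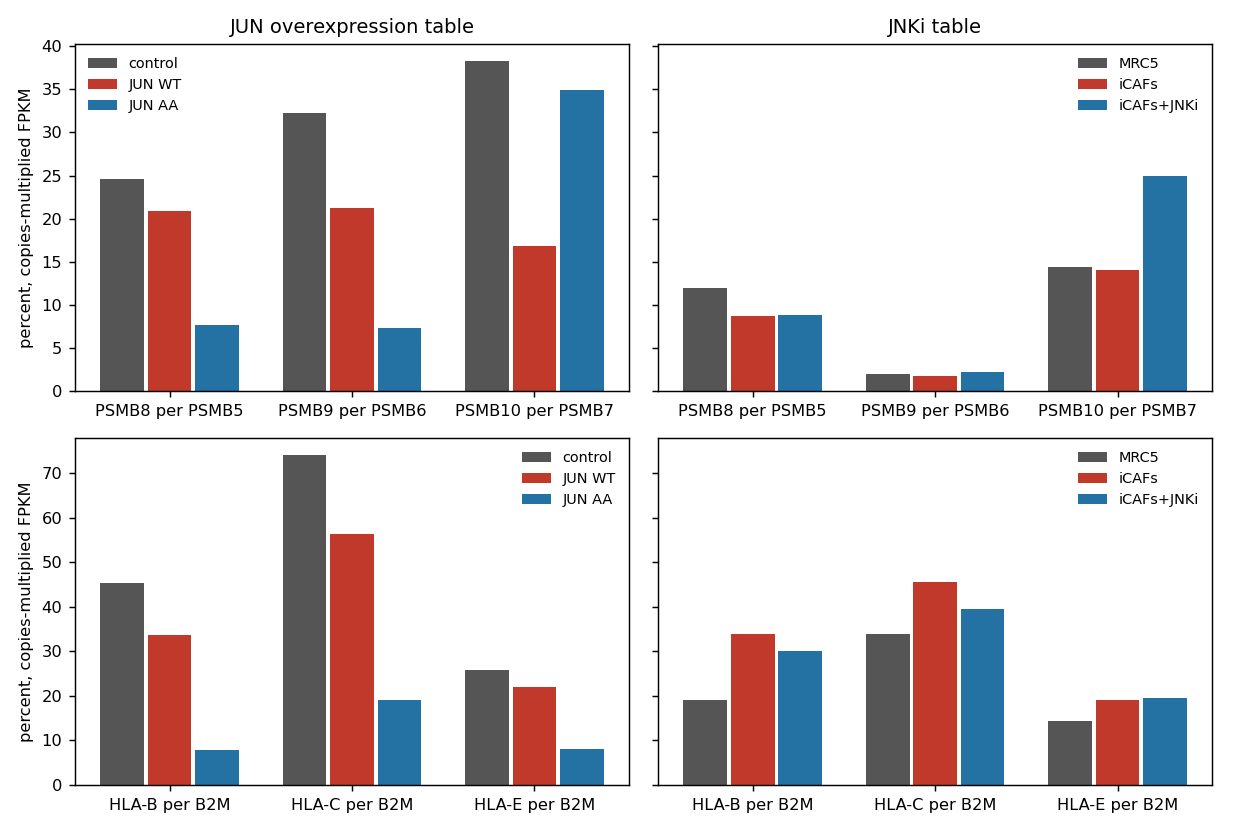
Ratio of 2 genes within each library, in percent, with MHC region genes multiplied by their copies, for immunoproteasome subunits over constitutive ones (top) and heavy chains over B2M (bottom), with 1 bar per library and the JUN overexpression table on the left. JUN AA is the lowest of the 3 bars on the left except for PSMB10 per PSMB7, where JUN WT is lowest at 16.8%.

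Other genes of the pathway were taken from lists of known components. Of the 57 genes of the 7 lists that passed the filter, 8 differed at least 2-fold in either direction between JUN WT and control, beside 10.3% of all genes, and 3 did when centred on the median gene. Between JUN AA and control 13 of the 57 did, beside 9.06% of all genes. The chaperones that load peptides leaned upwards in JUN WT, with 8 of 9 genes higher and a median of 0.55 beside 0.15 over all genes. They leaned downwards in JUN AA, with 7 of 9 lower and a median of -0.42 beside -0.02 over all genes. HSPA5, a general chaperone of the endoplasmic reticulum, was the single gene of the list past 2-fold in JUN WT, and none was when centred. It was at 79.3 FPKM with the empty vector, 175 with JUN WT and 81.8 with JUN AA. Tapasin (TAPBP), which bridges TAP and the heavy chain, was at 4.92, 8.03 and 3.43 FPKM, and its relative TAPBPL, which edits peptides, at 6.30, 10.9 and 2.67. Calreticulin (CALR), a lectin chaperone of the loading complex, was at 840, 1155 and 475. CANX, a membrane-bound lectin chaperone, was at 55.4, 75.3 and 47.8 FPKM and the disulfide isomerase PDIA3 at 74.98, 111 and 61.6. On the log2(FPKM + 1) scale 0 of the 9 were 2-fold different between JUN AA and control, with TAPBPL just short of it at -0.99. With a pseudocount of 0.1 it was 1 of 9 lower, and after rescaling to the same sum 3 of 9. Compared directly with JUN AA, JUN WT had 4 of the 9 higher by 2-fold or more, beside 6.65% of all genes. The 4 were TAPBPL (1.70), CALR (1.28), HSPA5 (1.09) and TAPBP (1.03), and the count was 7 after rescaling and 2 when centred. CALR, HSPA5 and TAPBP are named here after their values were seen.

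The other immunoproteasome and regulator genes were not of 1 direction. PSME1 and PSME2 encode the subunits of the PA28 cap that opens the proteasome. PSME2 was at 119 FPKM with the empty vector, 432 with JUN WT and 222 with JUN AA, a log2 difference of 1.85 in JUN WT and 0.90 in JUN AA. PSME1 was at 90.5, 125 and 53.9, higher in JUN WT by 0.46 and lower in JUN AA (-0.74). POMP, the assembly chaperone of the proteasome, was at 72.0, 83.2 and 261 FPKM, a difference of 1.84 in JUN AA. In the constitutive core, 13 of 14 subunit genes were higher in JUN WT (median 0.67) and 13 of 14 in JUN AA (median 0.48). Over all genes these medians were 0.15 and -0.02. After rescaling to the same sum 9 of 14 were higher in JUN AA, and when centred 11 of 14 were higher in JUN WT. PSMA5 had the largest difference in JUN WT, 1.35, from 11.7 FPKM in the control to 31.4, and PSMA1, named after its values were seen, also passed 2-fold (1.01). Thus 2 of 14 core genes were at least 2-fold higher in JUN WT, beside 6.92% of all genes, and 1 was when centred. PSMA2 had the largest difference in JUN AA, 1.59, from 55.9 FPKM to 171. In JUN AA 5 of 14 core genes were at least 2-fold higher, beside 5.29% of all genes, and 3 were after rescaling. The 5 were PSMA1, PSMA2, PSMA3, PSMA4 and PSMA6, of which all but PSMA2 are named after their values were seen.

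Of the peptidases that trim peptides, 7 of 8 passed the filter. All 7 were higher in JUN WT with a median of 0.47, beside 0.15 over all genes, and 5 of 7 were when centred on the median gene. In JUN AA the median was -0.09, beside -0.02 over all genes, with 6 of 7 lower. LAP3, a leucine aminopeptidase of the cytosol, was at 25.2 FPKM with the empty vector, 75.2 with JUN WT and 10.8 with JUN AA. ERAP1, the aminopeptidase of the endoplasmic reticulum, was at 2.28, 3.55 and 1.79, and its partner ERAP2 was at 0.0403, 0.164 and 0.0554, below the filter.

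Among the regulators of class I genes, 5 of the 10 that passed the filter were at least 2-fold lower in JUN AA, beside 3.77% of all genes, and 2 were at least 2-fold higher in JUN WT, beside 6.92%. Centred on the median gene, the 5 stayed 5 and the 2 became 0. NLRC5, the coactivator of class I promoters, was at 8.74 FPKM with the empty vector, 7.13 with JUN WT and 3.62 with JUN AA, a difference of -1.08 in JUN AA. IRF1, a transcription factor that binds the response element, was at 12.6, 8.34 and 3.69 (-1.53). The interferon gene IFNB1 was at 0.381, 11.3 and listed at 0. IRF9, a DNA-binding factor of the interferon response, had the largest difference of the list in JUN AA (-2.14), from 51.1 FPKM to 10.9, while JUN WT was at 59.8. STAT2, named after its values were seen, was also at least 2-fold lower in JUN AA, at 25.9 FPKM with the empty vector, 17.4 with JUN WT and 5.71 with JUN AA (-2.00). NFKB1, the precursor of an NF-kB subunit, was past 2-fold in JUN WT before centring (1.09), at 1.14, 3.55 and 1.77.

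**Figure D5:**
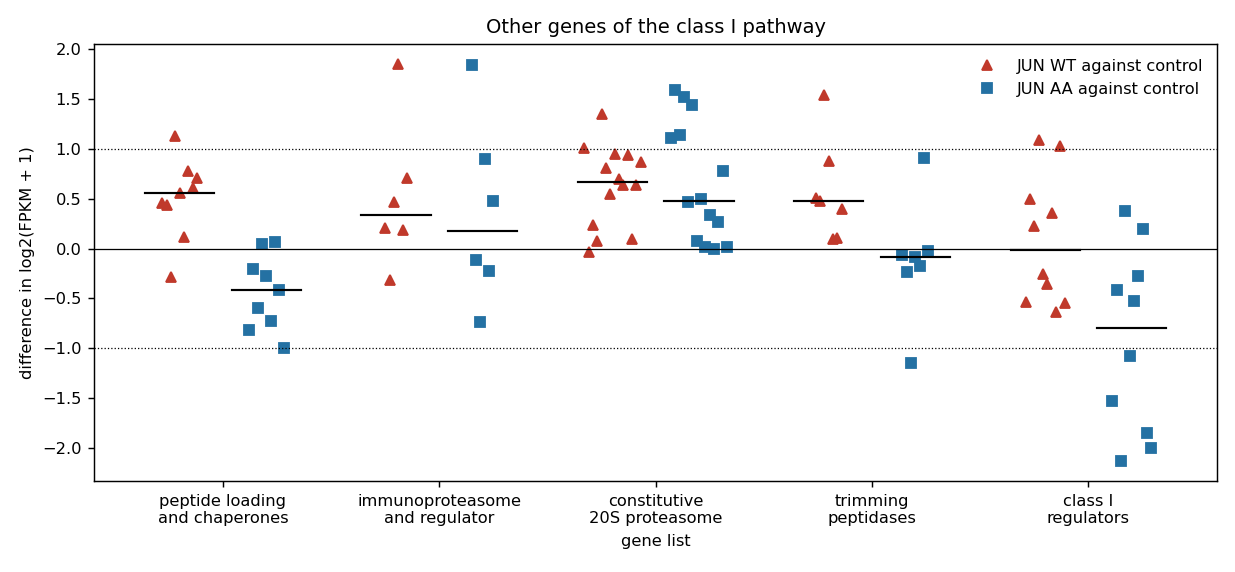
Difference from control in log2(FPKM + 1) of the genes in 5 lists of the class I pathway that pass the filter, for JUN WT (triangles) and JUN AA (squares), with 1 point per gene, a bar at the median of each list, and dotted lines at 2-fold. The chaperone medians lie at 0.55 in JUN WT and -0.42 in JUN AA, the constitutive core lies mostly above 0 in both with deposited values (9 of 14 genes in JUN AA after rescaling), and 5 regulators lie below -1 in JUN AA.

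The JNKi table asks how the genes stood after conditioned medium and after JNK inhibition. Differences there were small. In iCAFs, 0 of the 9 genes were 2-fold above and 0 were 2-fold below untreated MRC5, beside 1.94% and 1.71% of the 11780 genes passing the filter, and the median was -0.01. HLA-B had the largest difference, at 26.4 FPKM in untreated cells, 38.4 in iCAFs and 33.4 after JNKi, 0.53 higher in iCAFs. The other heavy chains above 1 FPKM differed less, with HLA-C at 40.3, 44.4 and 37.6 and HLA-E at 17.0, 18.6 and 18.5. B2M was at 833, 683 and 666, lower in iCAFs (-0.29). HLA-B per B2M, with HLA-B multiplied by its copies, was 19.0% in untreated cells, 33.8% in iCAFs and 30.1% after JNKi, and it was 3.17%, 5.63% and 5.02% with deposited values. The sum of HLA-B, HLA-C and HLA-E per B2M was 67.2%, 98.4% and 89.1% multiplied by the copies, and 10.05%, 14.9% and 13.4% as deposited.

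After JNKi, 0 of the 9 genes were 2-fold above iCAFs and 0 were 2-fold below, beside 2.25% and 1.97% of all genes. With deposited values all 9 were lower, with a median of -0.15 beside -0.10 for all genes. After rescaling to the same sum 6 of 9 were lower, and after centring 5 of 9, so the direction of HLA-E, B2M, TAP1 and PSMB9 depends on the scaling. With deposited values PSMB8 had the largest difference, at 2.69 FPKM in untreated cells, 2.15 in iCAFs and 1.48 after JNKi, which was -0.34 against iCAFs and -0.57 against MRC5, or -0.81 against MRC5 when multiplied by its copies. TAP1 stayed at 2.52, 2.55 and 2.36 FPKM and TAP2 at 1.42, 1.39 and 1.16. PSMB9 was at 0.299, 0.246 and 0.187 FPKM, and HLA-F at 0.119, 0.114 and listed at 0. Against MRC5, iCAFs+JNKi had 0 of the 9 genes past 2-fold upwards and 0 downwards, beside 3.28% and 3.53% of all genes, and HLA-B was 0.33 higher.

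The constitutive core was lower after JNKi, with 14 of 14 genes below iCAFs and a median of -0.50, a direction kept by 14 of 14 after rescaling and after centring. PSMB5 was at 180 FPKM in untreated cells, 199 in iCAFs and 134 after JNKi, PSMB6 at 125, 111 and 66.6, and PSMB7 at 139, 134 and 79.6. With PSMB8 and PSMB9 multiplied by their copies, PSMB8 per PSMB5 was 11.96%, 8.64% and 8.85% over these libraries, and PSMB9 per PSMB6 was 1.92%, 1.78% and 2.24%. As deposited they were 1.49%, 1.08% and 1.11%, and 0.240%, 0.222% and 0.280%. PSMB10, at 19.95, 18.9 and 19.8 FPKM, came to 14.3%, 14.1% and 24.9% of PSMB7. PSME2 was at 100.3, 79.4 and 44.04 FPKM, at least 2-fold lower than in MRC5 (-1.17), and PSME1 at 56.2, 55.5 and 43.2. Of the loading genes, none of 9 passed 2-fold in any comparison of this table, with CALR at 663, 876 and 1001 FPKM, PDIA3 at 138, 170 and 217, CANX at 187, 210 and 203, TAPBP at 7.21, 9.38 and 6.11 and TAPBPL at 4.37, 4.24 and 4.54. ERAP1 was at 7.31, 6.25 and 5.91 and ERAP2 at 0.549, 0.473 and 0.257.

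Among the regulators, NLRC5 was at 6.02 FPKM in untreated cells, 3.63 in iCAFs and 2.55 after JNKi, a difference of -0.98 between iCAFs+JNKi and MRC5. IRF1 had the opposite order, at 4.22, 6.16 and 7.51, while IFNB1 was listed at 0 in all 3 libraries. STAT2 was at 27.6, 17.3 and 36.7. Of the 59 genes of the 7 lists that passed the filter, STAT2 alone was past 2-fold between iCAFs+JNKi and iCAFs (1.05). Over all genes, 2.25% were that much higher and 1.97% that much lower.

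The genes outside these lists whose differences were most like the median of the 9 were found over 4 differences (JUN WT and JUN AA against control, iCAFs against MRC5, and iCAFs+JNKi against iCAFs) among 5693 genes that averaged 5 FPKM or more in both tables. By Euclidean distance they were WDR1 (0.16), DCAF15 (0.18), SMG9 (0.18), GLB1 (0.19) and PLOD3 (0.21). WDR1, a cofactor of actin filament disassembly, was at 128 FPKM with the empty vector, 126 with JUN WT and 56.4 with JUN AA, a difference of -1.16 in JUN AA and -0.02 in JUN WT. All 5 have 1 copy on the scale used above. The likeness is to a median, from which single members such as B2M, HLA-B and TAP1 depart.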

How the data were processed

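RNA-seq was done on MRC5 cells, with 1 library in each of 6 conditions taken from the labels, so no replicate block could be made. Per the labels and the methods, the authors aligned to hg19 using HISAT2 2.1.0, and StringTie 2.1.1 gave the FPKM per gene that they deposited in 2 tables. The annotation, the strand setting and the number of reads are not given in the sources used here, so depth and counting error are unknown. The kit was NEBNext Ultra.

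Each table has 25370 rows and 25368 symbols, and of a repeated symbol the highest row by mean was used. Differences of log2(FPKM + 1), a scale that understates changes of low genes, were computed within a table for 6 comparisons, with no test. Over all genes, a mean of at least 1 FPKM was required, and 2-fold means a difference of 1. Analyses used Python 3.11.15, numpy 2.4.6, pandas 2.3.3 and matplotlib 3.10.9, and the procedures were tested on simulated data. The number of copies is the smallest whole number up to 12 that turns all values of a symbol into 6-decimal numbers, and multiplying by it was chosen after the data were seen. Gene positions are from GRCh37 with GENCODE, and promoters from RefSeq.

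The 9 genes, the lists and the rules were chosen with earlier results of these data known. Named beside the 9 genes are fixed partners of the pathway, in each further list the largest rise and the largest fall past 2-fold, IFNB1, IRF1, JUN and the 5 genes most like the median of the 9. One listed gene is counted but not reported here. As alternatives, the pseudocount was 0.1, each library was rescaled to sum to 1000000, or the changes were taken after centring on the median gene, summing rows, dropping the filter, filtering at 5 FPKM or leaving out the heavy chains. Without replicates, a value counted as moved past 0.25 on the log2 scale or 1.5 times for counts, limits chosen here.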

Additional observations from a re-analysis of the deposited data

How the results depend on the processing

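Leaving out a replicate was not possible and no paired analysis was possible because each condition has 1 library. Of the 54 differences of the 9 genes over the 6 comparisons, 18 moved when FPKM were rescaled to the same sum, 9 with a pseudocount of 0.1, 9 when multiplied by the copies and 0 when centred or with rows of a symbol summed. The median of the 9 in JUN AA against control, -1.05, was -1.40 with a pseudocount of 0.1, -1.43 rescaled and -1.39 multiplied by the copies. In JUN WT against JUN AA, 1.07 became 1.35, 1.37 and 1.34 in the same order, and the 5 genes at least 2-fold higher became 2 when centred. With a pseudocount of 0.1, HLA-F, listed at 0 in iCAFs+JNKi, became the 1 gene at least 2-fold lower than in iCAFs and the 1 lower than in MRC5. Of the other listed genes, those at least 2-fold different went from 8 to 3 when centred in JUN WT against control. The share of all genes there went from 10.3% to 9.29%. In JUN WT against JUN AA the listed genes went from 14 to 30 rescaled, and the median of all genes moved from 0.18 to 0.47. In iCAFs against MRC5 the count went from 1 to 3 with a pseudocount of 0.1 and to 2 rescaled. With deposited values 1.94% of all genes were higher there and 1.71% lower. Multiplied by the copies, the count went from 1 to 2 in iCAFs+JNKi against iCAFs, beside 2.27% of all genes higher and 1.97% lower. In iCAFs+JNKi against MRC5 it went from 3 to 5, beside 3.30% higher and 3.52% lower. The cause was not tested. Without depth or replicates, differences of the size seen in the JNKi table cannot be told from variation between libraries.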

Other observations

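Ligands of the natural killer receptor NKG2D, which have a class I-like fold, are among the 15 other class I and class I-like genes, of which 10 passed the filter in each table. MICA was at 19.2 FPKM with the empty vector, 41.1 with JUN WT and 20.9 with JUN AA, a log2(FPKM + 1) difference of 1.06 in JUN WT that fell short of 2-fold when centred on the median gene. With deposited values it was the single gene of the list 2-fold higher in JUN WT and 0 were 2-fold lower in JUN AA, beside 6.92% and 3.77% of all genes. With a pseudocount of 0.1 these counts were 3 and 2, and after rescaling to the same sum 1 and 4. ULBP2 was at 5.83, 9.32 and 2.76 FPKM, 1.46 higher in JUN WT than in JUN AA. RAET1G was at 1.41 FPKM in untreated cells, 3.38 in iCAFs and 3.88 after JNKi, 1.02 higher in iCAFs+JNKi than in MRC5. Against the control, the list's median was 0.43 for JUN WT and -0.28 for JUN AA, beside 0.15 and -0.02 over all genes.

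Of 14 genes of the class II pathway, which serves professional antigen-presenting cells, 1 passed the filter in the JUN overexpression table with deposited values and 3 when multiplied by the copies. The former was IFI30, a lysosomal thiol reductase, at 57.4 FPKM with the empty vector, 63.5 with JUN WT and 21.2 with JUN AA (-1.39 in JUN AA). In the JNKi libraries 2 genes passed, or 4 when multiplied by the copies. With deposited values these were IFI30 at 9.14 FPKM in untreated cells, 4.45 in iCAFs and 4.57 after JNKi, and the lysosomal protease CTSS at 0.395, 2.91 and 2.34, 1.49 higher in iCAFs and 1.26 higher in iCAFs+JNKi than in MRC5.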
